A study of Mus musculus with 10 samples.

Results

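The genes described here are those of complex I, taken as every gene whose symbol begins with Nduf and that at least 1 probe set of the array named alone. There were 44 such genes, read by 88 probe sets, among 18193 genes and 45101 probe sets on the array. They were grouped as 6 core subunit genes, 30 accessory genes and 8 assembly genes (Ndufaf). Gastrocnemius muscle was taken from male D257A mice, homozygous for a D257A allele of Polg (PolgD257A/D257A), and from male wild type (WT) mice, all 13 months old, with 5 mice and 5 arrays per genotype. Polg encodes the catalytic subunit of the mitochondrial DNA polymerase, and the D257A change removes its proofreading, so that mtDNA mutations build up in every tissue that carries the allele. The change is a single residue, which the array does not read, and the allele is not restricted to muscle. The comparison asked how the RNA of the first respiratory complex stood in D257A muscle.

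Complex I oxidizes NADH, passes the electrons to ubiquinone and pumps protons across the inner mitochondrial membrane. Its core subunits carry the flavin, the iron-sulfur clusters and the proton channels, its accessory subunits surround that core, and its assembly factors help build the complex but are absent from the finished enzyme. Part of the membrane core is encoded by mtDNA and all the Nduf genes are nuclear, so that the complex needs products of both genomes. Skeletal muscle holds much of it, as a tissue that draws heavily on oxidative phosphorylation.

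The arrays measured hybridization signal, and their number limits the precision. Values below are signals after each array was scaled to a common trimmed mean of 500. The 10 arrays needed scale factors between 3.88 and 5.35, and no Nduf signal reached an array's highest value. Limma was fitted to the log2 signals of 22518 probe sets, each gene was read from its brightest probe set, and a gene was called where its Benjamini-Hochberg adjusted p was under 0.05. Where 5 values are given, they follow the mice in the order 2-17M, 2-21M, 2-25M, 2-27M and 2-30M for D257A and 1-12M, 1-13M, 2-3M, 2-32M and 3-18M for WT. Fold changes are log2 of D257A over WT, given with their standard errors. One protocol line of the labels names cochlea, whereas all other labels name gastrocnemius. Myh4, the fast IIb myosin heavy chain of muscle, averaged 51797 in D257A mice and 51817 in WT mice. Pou4f3, a hair cell factor, averaged 3.85 and Otos, a cochlear gene, averaged 44.5 in D257A mice, against 2.97 and 38.0 in WT mice. Neither was bright enough to be tested. Of 8 cochlear genes listed, 2 were bright enough, and none was called. The summed signal of those 2 was 166 to 295 in D257A mice and 231 to 345 in WT mice. Among WT mice, 1-13M differed from the rest in the genes described here, and its values are given beside the results they touch.

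Of the 44 Nduf genes, 43 were bright enough to be tested. Ndufb4, a membrane arm subunit, was not, since the only probe set that named it alone read 15.7 to 63.0 over the 10 mice. Ndufs6 and Ndufa11 shared their probe sets with near copies and were left out. The rule also takes Ndufa4 and Ndufa4l2, which carry the family name although Ndufa4 is known, from human and bovine enzyme, as a subunit of complex IV.

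Promoter sequences are shown for the 4 called genes that RefSeq promoter windows cover, together with Ndufa8 and Ndufa7. Ndufa8 is shown because it had more motif matches than the called genes, and Ndufa7 because it was the subunit gene with the highest D257A over WT value. Each run holds 250 bases before the start and 30 after it, written 5′ to 3′ on the gene's strand in build GRCm38.p6, from RefSeq. Capitals mark a match to 1 of 4 motifs of factors known to act on respiratory genes, sought on both strands.
Ndufs8, chr19:3912745-3913024, minus strand: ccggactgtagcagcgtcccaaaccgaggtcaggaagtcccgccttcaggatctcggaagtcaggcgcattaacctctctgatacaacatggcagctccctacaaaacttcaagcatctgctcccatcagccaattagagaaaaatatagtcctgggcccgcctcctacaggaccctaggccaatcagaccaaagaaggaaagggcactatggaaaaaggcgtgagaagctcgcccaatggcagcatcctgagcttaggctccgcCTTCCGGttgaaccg
Ndufv1, chr19:4012726-4013005, minus strand: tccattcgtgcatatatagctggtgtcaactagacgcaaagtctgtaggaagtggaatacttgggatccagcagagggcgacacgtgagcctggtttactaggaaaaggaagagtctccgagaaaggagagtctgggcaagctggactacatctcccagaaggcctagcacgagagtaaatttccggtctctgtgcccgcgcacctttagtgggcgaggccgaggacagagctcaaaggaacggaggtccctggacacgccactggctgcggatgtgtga
Ndufa10, chr1:92473729-92474008, minus strand: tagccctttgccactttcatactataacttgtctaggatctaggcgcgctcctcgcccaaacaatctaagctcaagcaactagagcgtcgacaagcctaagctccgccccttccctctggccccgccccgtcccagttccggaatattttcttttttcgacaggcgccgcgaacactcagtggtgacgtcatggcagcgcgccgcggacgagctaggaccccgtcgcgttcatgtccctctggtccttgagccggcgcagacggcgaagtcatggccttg
Ndufab1, chr7:122101819-122102098, minus strand: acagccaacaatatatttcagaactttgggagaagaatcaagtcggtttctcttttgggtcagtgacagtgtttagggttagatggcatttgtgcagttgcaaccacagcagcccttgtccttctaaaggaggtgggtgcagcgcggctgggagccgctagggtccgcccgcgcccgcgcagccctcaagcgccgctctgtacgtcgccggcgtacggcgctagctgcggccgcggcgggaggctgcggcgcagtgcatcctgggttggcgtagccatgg
Ndufa8, chr2:36049309-36049588, minus strand: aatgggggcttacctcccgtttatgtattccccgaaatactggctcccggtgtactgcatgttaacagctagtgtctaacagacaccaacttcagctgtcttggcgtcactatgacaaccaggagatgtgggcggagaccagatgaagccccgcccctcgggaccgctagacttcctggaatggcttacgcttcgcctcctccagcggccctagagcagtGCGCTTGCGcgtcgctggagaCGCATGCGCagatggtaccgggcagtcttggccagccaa
Ndufa7, chr17:33824395-33824674, plus strand: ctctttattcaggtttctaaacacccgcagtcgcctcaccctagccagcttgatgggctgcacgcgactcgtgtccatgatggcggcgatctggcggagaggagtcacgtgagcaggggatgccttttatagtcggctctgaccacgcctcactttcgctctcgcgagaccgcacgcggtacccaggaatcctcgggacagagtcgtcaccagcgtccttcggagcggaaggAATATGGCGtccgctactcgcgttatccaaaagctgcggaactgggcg

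The capitals in Ndufs8 are the reverse strand of the GABP (NRF-2) site CCGGAAG, 15 bases after the start. Those in Ndufa8 are 2 matches to the NRF-1 site GCGCNTGCG, 30 and 9 bases before the start. Those in Ndufa7 are a match to the YY1 site AANATGGCG, 18 bases before the start, in 1 of 2 windows that RefSeq gave for this gene. Over the whole 300 base windows, Ndufv1, Ndufa10 and Ndufab1 held none of the 4 motifs, and Ndufs1 had no window.

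NRF-1 matches were found in the windows of 9 of 39 Nduf genes (23.1%), against 6.31% of all 32851 promoter windows and 13.2% of the 11751 windows of genes tested on the array. YY1 matches were found in 7 of 39 Nduf genes (17.9%), against 2.38% of all windows and 4.95% of those of tested genes. GABP matches were found in 6 of 39 (15.4%), against 8.86% and 16.8%. The ERR element TNAAGGTCA was found in 1 of 39 (2.56%), Ndufb4, against 1.28% and 0.80%. In all, 21 of the 39 genes held at least 1 of the motifs and 18 held none. Matches to different motifs could overlap, a match is a run of letters only, and no binding was measured. The median log2 fold change was -0.08 for the Nduf genes with an NRF-1 match and -0.21 for those without, -0.10 with and -0.21 without a YY1 match, and -0.24 with and -0.15 without a GABP match. Of the 4 called genes with a window, only Ndufs8 held a match.

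Complex I transcripts were lower in D257A muscle for 5 genes and higher for none. The 5 were Ndufs8, Ndufs1 and Ndufv1 among the core subunits and Ndufa10 and Ndufab1 among the accessory subunits, each at 69.8% to 77.3% of its WT level. These 5 of 43 tested genes (11.6%) stand beside 3.52% of all 11216 genes called lower and 3.71% called higher. Another 13 Nduf genes had an unadjusted p under 0.05 and did not pass the adjustment, 11 of them with lower signals in D257A mice. With the called genes this makes 18 of 43, 16 of them lower, beside 22.8% of all genes tested, or 11.7% in the lower direction. The sign was negative for 36 of the 43 and positive for 7, and the median log2 fold change was -0.21, against -0.01 over all genes tested. Without Ndufa4 and Ndufa4l2 the count was 5 of 41 and the median still -0.21. With each array centred on its own median instead, which put the median of all genes at 0.12, 0 Nduf genes were called lower, 2 were called higher (Ndufa7 and Ndufaf6) and the Nduf median was -0.08, beside 1.67% of all genes called lower and 7.49% higher. Relative to all genes the Nduf median was -0.20 under both scalings.

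**Figure D1:**
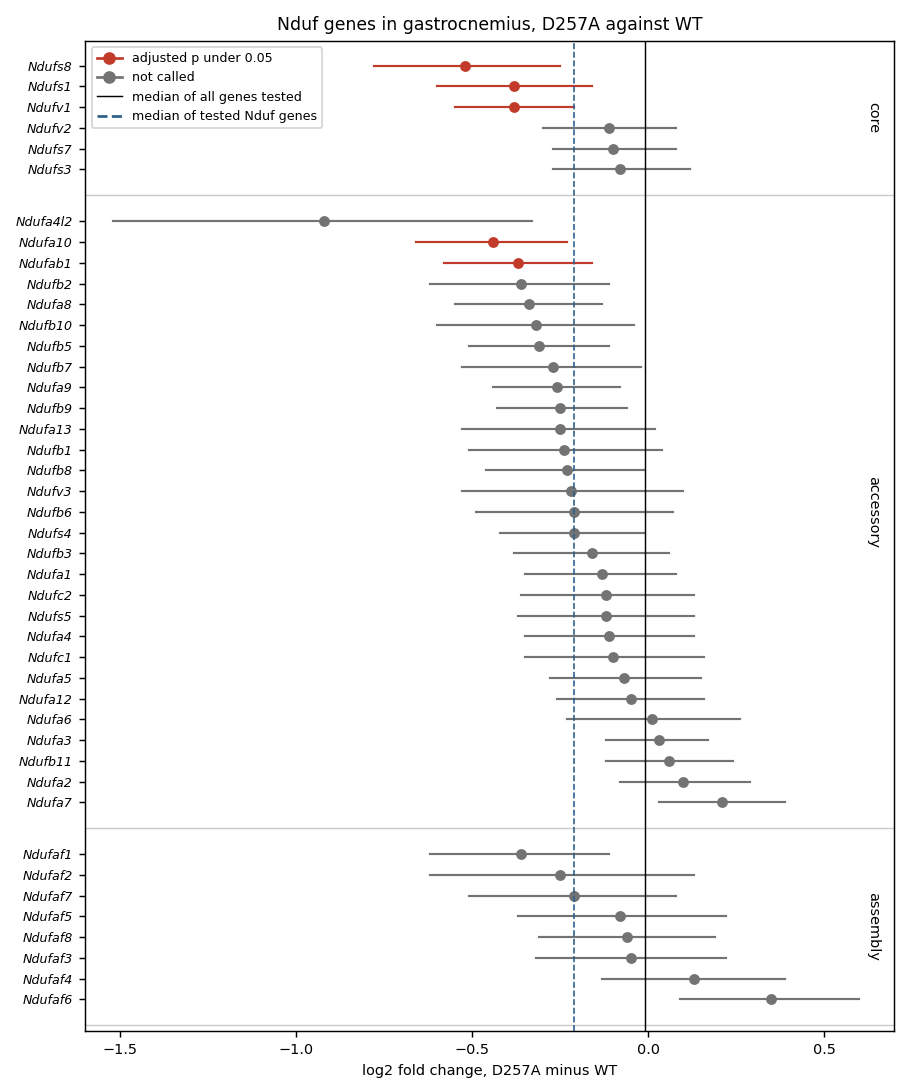
Log2 fold change of each tested Nduf gene, D257A minus WT, in the core, accessory and assembly classes, with 95% confidence intervals from limma (5 mice per genotype). The 5 called genes lie between -0.52 and -0.37, the dashed line is the Nduf median of -0.21 and the solid line the median of all genes, -0.01.

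The classes differed in their counts. Of the core genes 3 of 6 were called lower, all 6 had negative values and their median was -0.24. Of the accessory genes 2 of 29 were called lower, with a median of -0.21 and 24 negative values. None of the 8 assembly genes was called by limma, 2 had an unadjusted p under 0.05 in opposite directions, and their median was -0.07. No test of the difference between the classes was made.

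In bulk muscle RNA, fewer cells of a type and less RNA per cell cannot be told apart, and this holds for every value that follows. The electron-accepting arm was read first. Ndufv1, the subunit that binds NADH and the flavin, had 13223, 13272, 12882, 14427 and 12624 signal units in D257A mice, against 18901, 16104, 17793, 17368 and 16295 in WT mice. Every D257A mouse lay below every WT mouse, and the log2 fold change was -0.38 ± 0.08 (SE, limma adjusted p = 0.0106), the lowest adjusted p among the Nduf genes. It was called in all 10 fits that left out a mouse, with limma adjusted p-values of 0.00248 to 0.0349. The call was lost with a block for the digit that opens each mouse's number (limma adjusted p = 0.0595), without the variance trend (0.0578) and with median centring (0.0966).

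Ndufs1, the large iron-sulfur subunit that takes electrons onward, had 11706, 11789, 10975, 10939 and 11447 units in D257A mice, against 16049, 11914, 14410, 14408 and 17896 in WT mice. The groups did not overlap, but WT mouse 1-13M, with 11914, stood only just above the highest D257A mouse. The log2 fold change was -0.38 ± 0.10 (SE, limma adjusted p = 0.0364), and it was called again in only 1 of the 10 fits that left out a mouse, the one without 1-13M, with limma adjusted p-values up to 0.0951 in the rest. Ndufv2, the third subunit of the NADH-oxidizing tip, was not called, with a log2 fold change of -0.11 ± 0.09 and a 95% interval of -0.30 to 0.08. Its D257A mice read 23316 to 25982 and its WT mice 21155 to 29058, the lowest being 1-13M.

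The arm that carries electrons to ubiquinone gave the largest called difference. Ndufs8, which holds a pair of iron-sulfur clusters, had 11435, 16121, 12305, 12976 and 10618 units in D257A mice, against 18152, 14554, 19068, 21578 and 17307 in WT mice. The groups overlapped, since D257A mouse 2-21M read above WT mouse 1-13M. The log2 fold change was -0.52 ± 0.12 (SE, limma adjusted p = 0.0228). The call was lost in 6 of the 10 fits that left out a mouse (D257A mice 2-17M, 2-25M and 2-30M, WT mice 1-12M, 2-3M and 2-32M), with limma adjusted p-values up to 0.0639.

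Its neighbours in that arm did not follow it past the test. Ndufs7, which carries the last iron-sulfur cluster before ubiquinone, read 15385 to 17127 in D257A mice and 15896 to 19526 in WT mice, a log2 fold change of -0.10 ± 0.08 with an interval of -0.27 to 0.08. Ndufs3, a core subunit of the same arm, read 15023 to 19536 in D257A mice and 16062 to 20718 in WT mice, at -0.08 ± 0.09 with an interval of -0.27 to 0.12. Both intervals met that of Ndufs8, which ran between -0.78 and -0.25, only at their lower ends. Whether Ndufs8 differed from Ndufs7 and Ndufs3 was not tested.

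**Figure D2:**
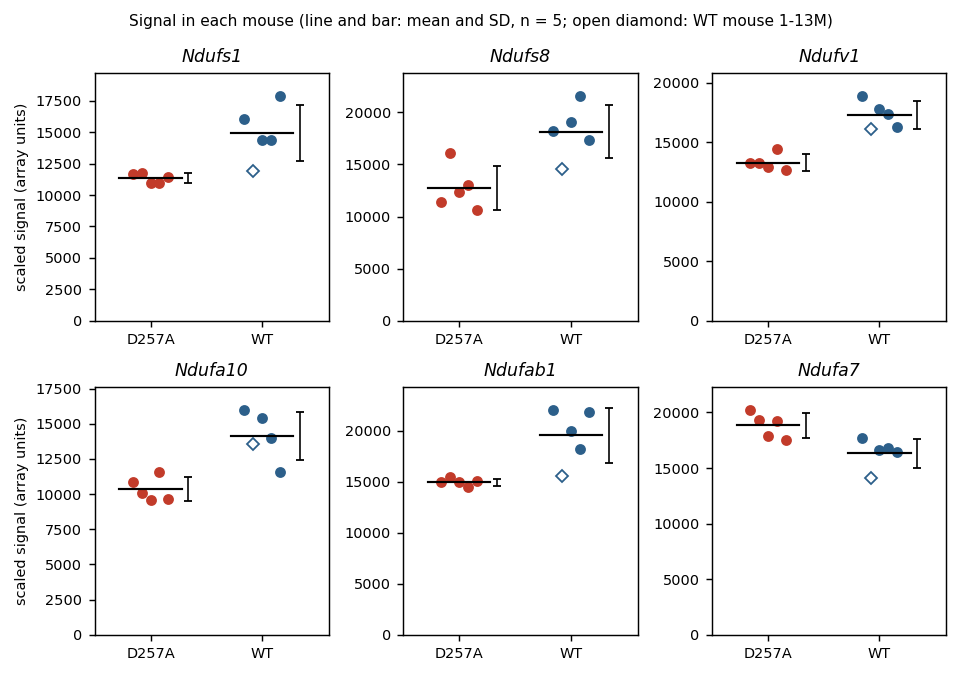
Scaled signal of the 5 called genes and Ndufa7 in each mouse, D257A left and WT right, with the mean and SD of 5 mice and axes that start at 0. WT mouse 1-13M (open diamond) is the lowest WT mouse in 5 of the 6 panels, and Ndufa7 is the panel in which D257A mice read higher.

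Among the accessory genes, Ndufa10 and Ndufab1 were called lower. Ndufa10, a membrane arm subunit related to nucleoside kinases, had 10887, 10091, 9544, 11546 and 9672 units in D257A mice, against 15996, 13585, 15439, 13960 and 11592 in WT mice. The groups did not overlap, though WT mouse 3-18M, with 11592, read only just above the highest D257A mouse. The log2 fold change was -0.44 ± 0.10 (SE, limma adjusted p = 0.0179). The call was lost without D257A mouse 2-25M, WT mouse 1-12M or WT mouse 2-3M, with limma adjusted p-values up to 0.0558.

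Ndufab1, the mitochondrial acyl carrier protein that also serves mitochondrial fatty acid synthesis, had 14943, 15415, 14947, 14457 and 15032 units in D257A mice, against 22042, 15582, 19952, 18156 and 21844 in WT mice. The D257A mice lay close together and below all WT mice, of which 1-13M was again nearest to them. The log2 fold change was -0.37 ± 0.10 (SE, limma adjusted p = 0.0329). Of the 10 fits that left out a mouse, only that without 1-13M kept the call, and the others had limma adjusted p-values up to 0.0875.

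Several accessory genes came near the threshold. Ndufa8, a subunit of the membrane arm next to the ubiquinone site, read 11526 to 12470 in D257A mice and 12120 to 17192 in WT mice, at -0.34 ± 0.10 (limma adjusted p = 0.0513). Ndufb5, of the proton-pumping arm, read 20577 to 22190 in D257A mice and 22027 to 31209 in WT mice, at -0.31 ± 0.09 (limma adjusted p = 0.0592). In both genes only WT mouse 1-13M reached into the D257A range.

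Ndufa9, which lies at the joint of the matrix and membrane arms, had 15051, 15346, 16495, 16561 and 15597 units in D257A mice, against 21742, 16660, 19563, 18442 and 18709 in WT mice. The groups did not overlap, although its log2 fold change of -0.26 ± 0.08 was not called (limma adjusted p = 0.0715). In all, 5 Nduf genes had every D257A mouse below every WT mouse, namely Ndufs1, Ndufv1, Ndufa10, Ndufab1 and Ndufa9, beside 3.47% of all genes tested. None had every D257A mouse above every WT mouse, beside 3.93%.

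The value farthest below 0 belonged to Ndufa4l2, an Ndufa4 relative known in human cells as a hypoxia-induced gene. It had 102, 308, 224, 248 and 127 units in D257A mice, against 392, 408, 412, 325 and 254 in WT mice. WT mouse 3-18M fell among the D257A mice, and the log2 fold change of -0.92 ± 0.28 was not called (limma adjusted p = 0.0598). Ndufa4 itself read 17912 to 22734 in D257A mice and 18227 to 26139 in WT mice, at -0.11 ± 0.11. Below -0.30 among the uncalled accessory genes stood also Ndufb2 at -0.36 ± 0.12 and Ndufb10 at -0.32 ± 0.13, both of the proton-pumping membrane arm, beside Ndufa8 and Ndufb5.

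By the assembly modules known from human cells, the calls fell in the N, Q, ND2 and ND5 modules. Of all genes tested, 3.52% were called lower, and each module holds few genes. The NADH-oxidizing N module had 2 of 9 genes called lower and a median of -0.11, and the ubiquinone-binding Q module had 1 of 5 and -0.10. In the membrane arm, the ND1 module had 0 of 3 called (median -0.25), the ND2 module 1 of 5 (-0.12), the ND4 module 0 of 5 (-0.24) and the ND5 module 1 of 6 (-0.26). All 6 ND5 genes (Ndufb2, Ndufb3, Ndufb7, Ndufb8, Ndufb9 and Ndufab1) had negative values. Of these, 5 had an unadjusted p under 0.05, beside 11.7% of all genes in the lower direction. The N module held Ndufs1 and Ndufv1 and also 3 of the 5 subunit genes with positive values, Ndufa7, Ndufa2 and Ndufa6.

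Ndufa7, an accessory subunit of the matrix arm, ran the other way. It had 20252, 19333, 17884, 19268 and 17562 units in D257A mice, against 17687, 14134, 16586, 16786 and 16462 in WT mice. WT mouse 1-12M read above D257A mouse 2-30M and otherwise the groups were apart, at 0.21 ± 0.08 (limma adjusted p = 0.137). The other positive subunit genes were Ndufa2 at 0.10, Ndufb11 at 0.06, Ndufa3 at 0.03 and Ndufa6 at 0.01, none of them called.

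The assembly genes were dimmer than the subunits. Their log2 signal averaged 10.34 over D257A mice and 10.41 over WT mice, that of the accessory genes 13.63 over D257A mice and 13.83 over WT mice. Signals of different probe sets are not levels, so this says only how bright the probes were. Ndufaf1, a factor of the early membrane arm, had 2263, 2485, 2545, 2506 and 2246 units in D257A mice, against 3194, 2380, 3264, 3520 and 3268 in WT mice. Only WT mouse 1-13M overlapped the D257A mice, and the log2 fold change of -0.36 ± 0.12 was not called (limma adjusted p = 0.0758).

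Ndufaf6, needed for the early membrane intermediate in human cells, had the highest value of all Nduf genes. It had 2799, 3230, 2655, 2462 and 3225 units in D257A mice, against 2352, 1943, 2269, 2115 and 2619 in WT mice. WT mouse 3-18M overlapped the D257A mice, and the log2 fold change of 0.35 ± 0.12 was not called (limma adjusted p = 0.0922). Of the other assembly genes, Ndufaf4, a Q module factor, was at 0.13 ± 0.12, and its partner Ndufaf3 at -0.05 ± 0.13. Ndufaf2, a relative of Ndufa12, was at -0.25 ± 0.17, and Ndufaf7, an arginine methyltransferase, at -0.21 ± 0.14. Ndufaf5, which hydroxylates Ndufs7, was at -0.08 ± 0.14, and its partner Ndufaf8 at -0.06 ± 0.12.

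Other factors that build complex I showed no call. Of 11 tested, 0 passed limma's adjusted threshold in either direction, and the median was -0.02. At an unadjusted p under 0.05 stood 2 of the 11, both lower. The shares of all genes were 22.8% in either direction and 11.7% in the lower direction. These 2 were Timmdc1, which works with the early membrane arm, at -0.48 ± 0.16 (limma adjusted p = 0.0845), and Aifm1, a mitochondrial flavoprotein needed for complex I biogenesis, at -0.29 ± 0.10 (limma adjusted p = 0.10). Aifm1 read 1778 to 2017 in D257A mice and 2099 to 2600 in WT mice, without overlap.

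One subunit encoded by mtDNA was measured. ND5 (mt-Nd5), the outermost proton-pumping subunit, had 55434, 58610, 55939, 58428 and 66057 units in D257A mice, against 66235, 48611, 49977, 47082 and 61958 in WT mice. The groups overlapped, at 0.12 ± 0.10 (limma adjusted p = 0.517), and the other mtDNA-encoded subunits were not analysed here.

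Genes with several probe sets allowed a second reading of the same RNA. Counted singly, 11 of 83 Nduf probe sets were called lower and 1 higher, and 66 had negative values. Of all 22518 probe sets tested, 3.74% were called lower and 3.64% higher. For Ndufs8, 5 of 6 probe sets were called lower, from -0.40 ± 0.11 to -0.90 ± 0.14 (limma adjusted p = 0.00215). The lowest value came from 1434213_x_at, which had 3481, 4937, 4200, 4387 and 3201 units in D257A mice, against 7602, 6657, 7655, 9225 and 6330 in WT mice. There the groups did not overlap, unlike in the brightest set. The sixth set was near background, at 128 to 336 units in D257A mice and 139 to 387 in WT mice.

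For Ndufv1, 2 of 3 probe sets were called, and the third was at -0.34 ± 0.10 (limma adjusted p = 0.0547). For Ndufa10 and Ndufab1 only the brightest set was called, and their other sets were much dimmer, with mean log2 signals of at most 9.33 and 9.99, against 13.55 and 14.05 for the brightest sets. Ndufb2, uncalled by its brightest set, was called lower by 1416834_x_at at -0.50 ± 0.11 (limma adjusted p = 0.0182), where D257A mice read 6170 to 9098 and WT mice 9819 to 12724. The other Ndufv2 sets, 1438159_x_at and 1452692_a_at, were not called, at -0.19 ± 0.14 and -0.26 ± 0.12 (limma adjusted p = 0.45 and 0.199). Without WT mouse 1-13M both were called lower (limma adjusted p = 0.0243 and 0.00526). Ndufs1 had a single probe set and so no second reading.

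All 5 probe sets of Ndufa7 had positive values, between 0.18 and 0.35. One of them, 1436567_a_at, was called higher at 0.35 ± 0.08 (limma adjusted p = 0.0244), with 14805, 14673, 12557, 13096 and 12781 units in D257A mice, against 10452, 9971, 11406, 11380 and 10051 in WT mice. The groups were also apart in 2 of the other sets. The sign differed between probe sets in 6 genes (Ndufa12, Ndufa3, Ndufa5, Ndufab1, Ndufb11 and Ndufb2). Probe sets ending in _x_at hold probes that can match other transcripts, and sets of 1 gene read the same RNA, so these are not independent measurements.

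**Figure D3:**
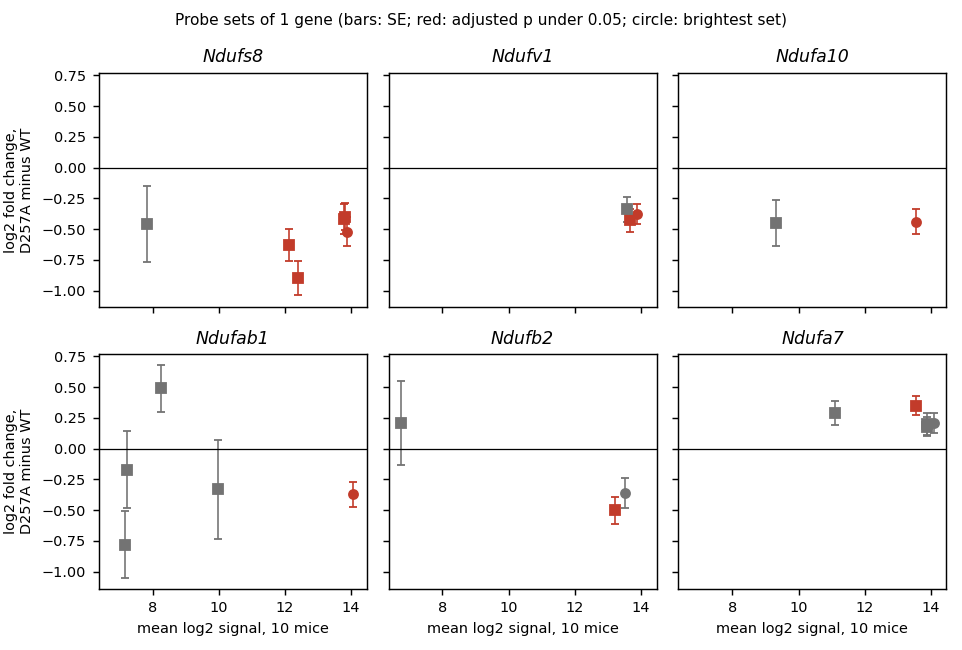
Log2 fold change with SE of every tested probe set of 6 genes against its mean log2 signal over 10 mice. The 5 bright probe sets of Ndufs8 are all called lower, the 5 of Ndufa7 all lie above 0, and the dim sets of Ndufab1 and Ndufb2 scatter on both sides of 0.

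One WT mouse set much of the spread. Over the 43 genes, mouse 1-13M was the lowest WT mouse in 37 and the lowest of all 10 mice in 23. The mean log2 signal of the Nduf genes was 13.03, 13.13, 13.08, 13.08 and 12.98 in D257A mice, against 13.38, 12.96, 13.30, 13.20 and 13.36 in WT mice, the second of which is 1-13M. The D257A mice lay close together and 1-13M lay below all of them, while the other 4 WT mice lay above all of them.

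The median SD of an Nduf gene was 0.09 on the log2 scale in D257A mice and 0.21 in WT mice, and the WT SD was the larger in 37 of 43 genes. Over all genes tested the medians were 0.22 and 0.28, and the WT SD was the larger in 66.0%. Without 1-13M the median WT SD was 0.14 for the Nduf genes and 0.21 for all genes tested. The WT SD was then the larger in 29 of 43 Nduf genes and in 5542 of 11216 genes tested.

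Without 1-13M, 18 of the 43 Nduf genes (41.9%) were called lower and 0 higher by limma, beside 8.33% of all genes called lower. They were the same 5 genes and 13 more: Ndufa13, Ndufa8, Ndufa9, Ndufaf1, Ndufaf2, Ndufb10, Ndufb2, Ndufb5, Ndufb6, Ndufb7, Ndufb8, Ndufb9 and Ndufv3. The median log2 fold change was then -0.24. The labels give no reason to set this mouse aside, and both readings are therefore given. The array of 1-13M had the highest deposited trimmed mean, 128.7, and the lowest scale factor, 3.88. WT mouse 2-32M came next, with 116.0 and 4.31. In the alternative fit with array weights, 1-13M had the lowest weight, 0.28, and WT mouse 3-18M the next lowest, 0.56. Whether the low Nduf values of 1-13M came from the array or from the mouse was not tested.

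**Figure D4:**
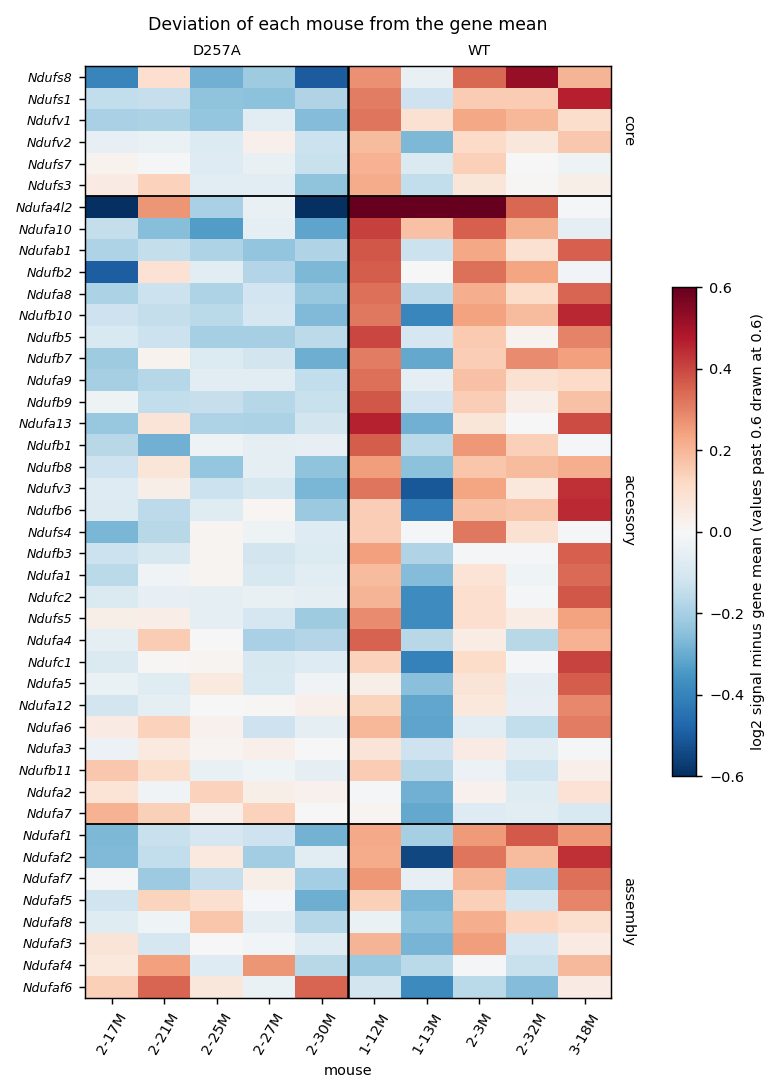
Log2 signal of each tested Nduf gene in each mouse, as the difference from the mean of 10 mice, with D257A left and WT right and genes ordered by fold change within their class. The column of WT mouse 1-13M is low for most genes and is the lowest of all mice in 23 of 43, unlike those of the other 4 WT mice.

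Beside complex I, lists of the other respiratory complexes were read in the same fit. Of all genes tested, 3.52% were called lower and 3.71% higher in that fit. Complex II had 2 of 4 genes called lower (Sdhb and Sdhc) with a median of -0.28, and complex III had 4 of 9 (Uqcrq, Uqcrc1, Uqcrc2 and Cyc1) with a median of -0.24. Complex IV had 1 of 12 (Cox7a1) with a median of -0.12, and ATP synthase had 1 of 16 (Atp5d) with a median of -0.14. None of these lists had a gene called higher. Enzymes that supply NADH had 1 of 10 called lower (Dlat, of the pyruvate dehydrogenase complex), with negative values in all 10 and a median of -0.24. Enzymes that bring electrons to ubiquinone without complex I, listed with the transhydrogenase Nnt, had 2 of 7 called lower, the electron transfer flavoprotein subunit Etfb at -0.32 ± 0.08 and its ubiquinone oxidoreductase Etfdh at -0.38 ± 0.09. A list of general mitochondrial genes, such as those of the outer membrane, had 0 of 15 called by limma and a median of -0.03. Of these 15, 3 had an unadjusted p under 0.05, all lower, beside 11.7% of all genes in that direction.

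**Figure D5:**
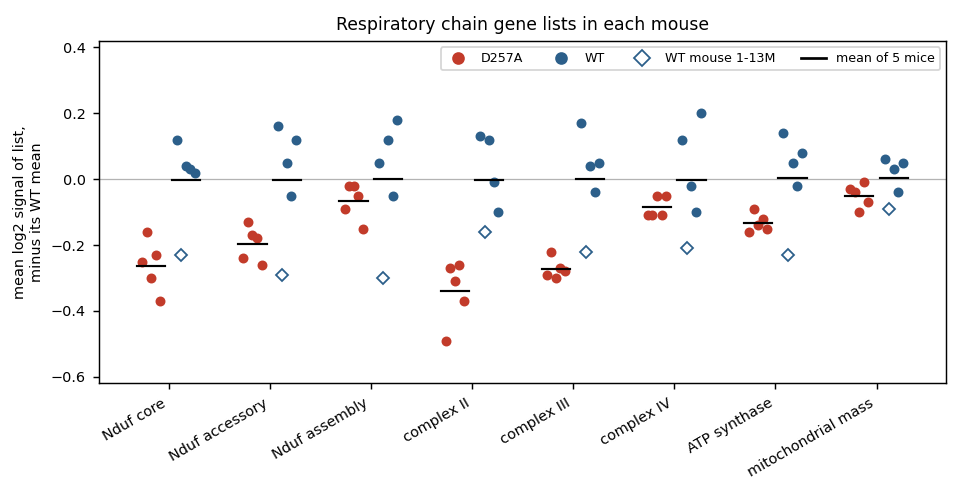
Mean log2 signal of 8 gene lists in each mouse, as the difference from the WT mean of the list, with D257A left of WT. The D257A means lie 0.26 below WT for the core and 0.20 for the accessory Nduf genes, and WT mouse 1-13M is the lowest WT mouse in every list drawn.

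Markers of other cells moved between the groups too. Their counts stand beside 3.52% of all genes called lower and 3.71% called higher. Of 6 fibroblast genes 3 were called lower, Col1a2, Col3a1 and Col1a1, with a median of -1.14. The summed signal of the list, in which bright probe sets weigh most, was 20754 to 24680 in D257A mice and 20819 to 34094 in WT mice. Mouse 1-13M had the lowest collagen of the WT mice, with 778 units of Col1a2 against 1941 to 3548 in the other 4. Of 8 macrophage genes 3 were called higher, Mrc1, Cd163 and Lyz2, with a median of 0.26. Their summed signals were 7177 to 11156 over the whole list in D257A mice and 6219 to 7521 in WT mice. Of 5 adipocyte genes 1 was called higher, Retn, at 1.18, while Lep was at -1.18 (limma adjusted p = 0.165), with a median of 0.30 over the list that was -0.18 without 1-13M, when Lep was called lower (limma adjusted p = 0.0174). The list had summed signals of 20549 to 30603 in D257A mice and 14910 to 27671 in WT mice. No fast fibre gene (0 of 8) and no slow fibre gene (0 of 8) was called by limma, with medians of 0.06 and 0.34. At an unadjusted p under 0.05 stood 0 and 3 of them, the 3 higher, beside 22.8% of all genes in either direction. None of these marker genes was at 0, and their part in the complex I values was not tested.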

How the data were processed

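Total RNA of gastrocnemius muscle from 5 D257A and 5 WT mice was hybridized to Affymetrix mouse arrays. The authors produced the signal intensity of each probe set with GCOS 1.3 (submitters' processing notes), and the deposited intensity values are linear. The study's methods state a scaling to 500, but the deposited trimmed means differed between arrays, so each array was rescaled here to a trimmed mean of 500 (2% trimmed at each end) and log2 was taken. Fold changes were computed here. Limma 3.58.1 in R 4.3.3, with a variance trend, was fitted to 22518 of 45037 probe sets, those whose log2 signal averaged above 6.26, the median over probe sets. The Benjamini-Hochberg adjustment ran over all of them. Standard errors, intervals and p-values measure the spread between mice. The script was tested on simulated data.

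Probe sets were named from the platform annotation, in which 34945 had 1 symbol, 932 several and 9160 none. The 10 Nduf probe sets with several symbols were left out. The members, modules, lists and tests were chosen with earlier results of these data known. Named genes were the core and Ndufaf genes, every called Nduf gene and the 5 others with the largest change. The Nduf genes that the study named for mRNA or protein were added, with genes whose probe sets disagreed and Ndufa4 with Ndufa4l2. What the study took from these samples is not independent evidence, and its protein blots used mice of another age. Promoter windows came from RefSeq (GRCm38.p6) for 39 of 44 genes. The 22 alternatives covered scaling, filtering, the test, the mouse numbering, array weights, the mean over the probe sets of a gene and leaving out each mouse. Counting probe sets singly was added after the data were seen. Python 3.11.15 was used for tables and figures.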

Additional observations from a re-analysis of the deposited data

Results flagged for a closer look

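In 7 of 86 groups of 5 mice (43 genes in both genotypes), 1 mouse lay far from the other 4 by Dixon's criterion, where chance alone gives about 1 group in 20. WT mouse 1-13M was the low value in 5 of them. It had 9281 units of Ndufb7, against 12732 to 14249 in the other WT mice, and 15153 of Ndufb8, against 20130 to 21385. It had 21155 units of Ndufv2, against 26706 to 29058, 2380 of Ndufaf1, against 3194 to 3520, and 364 of Ndufaf2, against 607 to 720. The remaining values were from D257A mouse 2-17M, which had the highest Ndufb9 of its group, 29137 against 26422 to 27126, and the lowest Ndufc2, 17154 against 17507 to 17620.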

How the results depend on the processing

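No paired analysis was possible because the labels give no litter or pair that D257A and WT mice share. The digit that opens each mouse's number is 2 for all D257A mice, but among WT mice only for 2-3M and 2-32M. The fit over mice numbered 2 and the fit with a block for the digit therefore compare D257A with those WT mice only. The number of Nduf genes called lower, 5 in the reported fit, was 15 with array weights (with 1 higher), 8 over only the 11259 brightest probe sets, 8 over mice numbered 2 only, 11 without scaling, 12 after quantile normalization and 11 with probe sets counted singly. The share of all genes (for the last, probe sets) called lower, 3.52% in the reported fit, was then 9.30%, 5.54%, 3.96%, 3.82%, 3.56% and 3.74%, in the same order. The Nduf count was 2 without the filter, 2 by the methods' t-test, 2 with a block for the digit that opens each mouse's number, and 0 without the variance trend, beside 2.34%, 2.09%, 1.22% and 2.34% of all genes. Centring each array on its median gave 0 lower and 2 higher, with an Nduf median of -0.08, and against the median of all genes, 0.12 there, the Nduf median was -0.20 as before. Leaving out 1 mouse gave 1 to 18 genes lower, 18 without WT mouse 1-13M and 1 without D257A mouse 2-25M, WT mouse 1-12M or WT mouse 2-3M. It gave 2 without D257A mouse 2-17M or 2-30M or WT mouse 2-32M, 3 without D257A mouse 2-27M and 4 without D257A mouse 2-21M or WT mouse 3-18M, beside 1.53% to 8.33% of all genes, with 0 higher each time and a median of -0.24 to -0.12. An offset of 32 and the mean over probe sets each gave 5, beside 3.65% and 4.48% of all genes. The offset kept the same genes. Over the mean of probe sets Ndufab1 was not called, at -0.23 (limma adjusted p = 0.385), and 1 other Nduf gene was called instead. The cause of these shifts was not tested.

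Ndufv1 was called under 19 of 22 alternatives, Ndufa10 under 17, Ndufs8 under 12, Ndufs1 under 8 and Ndufab1 under 7, always with lower values. No called gene turned its sign. Median centring turned the sign of 13 uncalled genes: Ndufa1 to 0.0021, Ndufa12 to 0.08, Ndufa4 and Ndufv2 to 0.03, Ndufa5 and Ndufaf8 to 0.07, Ndufaf3 to 0.09, Ndufaf5 and Ndufs3 to 0.06, Ndufc1 and Ndufs7 to 0.04, and Ndufc2 and Ndufs5 to 0.02. Without scaling Ndufa3 was at -0.05, Ndufa6 at -0.06 and Ndufb11 at -0.02, and after quantile normalization they were at -0.07, -0.05 and -0.02. Over the mean of probe sets Ndufa12 was at 0.02, Ndufa3 at -0.03 and Ndufb11 at -0.0016. Ndufa4 was at 0.01 with the digit block and over mice numbered 2. Leaving out 1 mouse gave -0.07 to 0.09 for Ndufa6, -0.13 to 0.02 for Ndufa12, -0.14 to 0.02 for Ndufa5 and -0.12 to 0.01 for Ndufaf3. With 5 arrays a group, the standard errors of the tested Nduf genes were 0.07 to 0.28, which limits the size of change that could be called.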
